A study of Mus musculus with 6 samples.

Results

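The 9 macrophage lineage transcription factors Spi1, Cebpa, Cebpb, Cebpd, Cebpe, Maf, Tfec, Runx1 and Spic were taken by gene name from a table of 54532 genes, and each was found once. The values came from 6 RNA-seq libraries of mouse bone marrow-derived macrophages (BMDMs) kept in co-culture with ID8, an ovarian cancer line of mouse origin. Before co-culture the tumour cells received either cisplatin at 40 µM, a DNA-crosslinking platinum agent (3 libraries), or phosphate-buffered saline (PBS, 3 libraries). The question was what macrophages become beside tumour cells that have met the drug. Per the study's methods the marrow cells came from young C57BL/6 mice and were grown in RPMI medium with serum, and no macrophage growth factor is named there. How the marrow cells were separated from the ID8 cells is not given in the sources used here. The methods name female mice for the tumour experiments in animals and give no sex for the marrow donors. The study's methods speak of biological replicates for the sequencing, but neither they nor the labels say whether the 3 libraries of a group came from separate mice or separate cultures, so the p-values measure only the spread between these libraries, part of which may be technical.

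These factors set and hold the myeloid fate. PU.1, the product of Spi1, is an ETS-family protein that opens macrophage enhancers and is needed for monocytes and macrophages to form. Runx1 acts before it in blood stem and progenitor cells, and the C/EBP proteins work beside it. C/EBPα drives granulocyte and monocyte precursors and C/EBPε acts in granulocyte precursors, whereas C/EBPβ and C/EBPδ are stress-inducible and act in activated macrophages. Maf encodes c-Maf, a factor of mature, Il10-producing macrophages, Tfec encodes a myeloid-restricted member of the MiT/TFE family, and Spic encodes Spi-C, a PU.1 relative known from iron-recycling macrophages of the spleen.

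The libraries held between 15776238 and 17924686 reads. Levels are in FPKM, that is, fragments scaled to a gene's length in kilobases and to a size set for its library, which allows levels to be compared between genes. That size was 97.4% to 98.7% of the recovered reads in the PBS libraries and 104% in each cisplatin library, so FPKM lower the cisplatin values slightly against a scaling by total reads. Genes with at least 1 FPKM in at least 3 libraries were tested with limma on log2(FPKM + 1). A gene was called at a Benjamini-Hochberg adjusted p under 0.05 together with a fold change of 1 or more in size on the log2 scale. The BMDM label was checked against its markers. Of 8 macrophage markers, 8 were tested and higher with cisplatin at an adjusted p under 0.05, and their summed level ranged from 1635 to 1647 FPKM with PBS and from 4187 to 4341 FPKM with cisplatin. Lyz2, which neutrophils also express, carried most of this sum (1161 ± 10.7 to 3459 ± 80.4 FPKM, SD of 3 libraries per group), and the median log2 fold change of the list was 0.90, with the lowest at 0.20 for Cd68. The libraries also held RNA of other cells. The summed level of 17 ID8 and mesothelial genes ranged from 1314 to 1417 FPKM with PBS and from 248.97 to 269.6 FPKM with cisplatin, although 6 of the 17 (Krt7, Epcam, Cldn4, Cldn7, Col3a1 and Igfbp5) stayed below 1 FPKM in all libraries. Krt19 (588 to 51.1 FPKM on average) and Sparc (231 to 49.7 FPKM) carried much of the sum. Of the 11 tested, 10 were lower at the adjusted p, and Cdh1 was higher (3.24 ± 0.52 to 5.41 ± 0.53 FPKM, SD of 3 libraries per group, log2 fold change 0.60, adjusted p = 0.00238). Conversely, 10 pan-leukocyte genes had a geometric mean of 127 to 130.1 FPKM with PBS and 214 to 217 FPKM with cisplatin. They did not move evenly, with log2 fold changes from 0.093 (Fcer1g, adjusted p = 0.126) and 0.22 (Rac2) to 1.04 (Coro1a) and 1.11 (Tyrobp). The sign of a small ratio to them therefore depends on which of these genes are taken. The 9 neutrophil markers summed to 4866 to 5018 FPKM with PBS and to 8836 to 9075 FPKM with cisplatin. S100a8 and S100a9 made up most of that sum, and Ly6g of the same list overlapped between the groups (log2 fold change 0.13, adjusted p = 0.349). The B cell genes Cd79a and Ms4a1 were called higher, whereas Cd3d, Cd3e and Cd3g of T cells, and Ncr1 and Klrb1c of natural killer cells, stayed below 1 FPKM. Other T cell genes were low but present: Trac stood at 1.58 to 2.89 FPKM over the 6 libraries, and Cd8a at 1.68 ± 0.22 FPKM with PBS and 2.53 ± 0.15 FPKM with cisplatin (SD, log2 fold change 0.40, adjusted p = 0.00594). The 7 dendritic cell markers summed to 17.3 to 18.9 FPKM with PBS and to 41.0 to 43.4 FPKM with cisplatin, carried by Ccr7 and Siglech. Of the same list Zbtb46 was lower (1.604 ± 0.095 to 0.61 ± 0.026 FPKM, SD of 3 libraries per group, log2 fold change -0.69, adjusted p = 0.00039), and Xcr1, Clec9a and Cd209a stayed below 1 FPKM. In such bulk samples, fewer cells of a type and less RNA per cell cannot be told apart. The part of these shifts in the results that follow was not tested, and each factor is therefore also given relative to the pan-leukocyte genes of its own library.

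All 9 factors passed the filter. Only Tfec was called, as a rise, against 4.67% of all 13441 tested genes called higher, and no factor was called lower, against 11.3% (limma, with 0 factors lower at an unadjusted p under 0.05, and 0 called lower by limma voom). At the adjusted p alone, Spi1, Cebpa, Cebpe, Runx1 and Spic were higher too, giving 6 factors of 9, where 32.9% of all genes were higher and 35.1% lower. The remaining 3, Cebpb, Cebpd and Maf, did not pass, although Cebpd passed as higher with quantile normalisation (adjusted p = 0.0272), with limma voom (adjusted p = 0.00211) and without cisplatin replicate 1 (adjusted p = 0.0301). Without PBS replicate 2, in contrast, the log2 fold change of Cebpd went from 0.19 to 0.12 (adjusted p = 0.178). The median log2 fold change of the 9 factors was 0.57, beside -0.0011 over all tested genes. In 6 of the 9 the cisplatin and PBS libraries did not overlap, where 72.4% of all tested genes were so separated. Of 781 tested genes with a transcription factor family in the table, 1.79% were called higher and 9.35% lower, 30.2% were higher and 36.5% lower at the adjusted p alone, and in 73.6% the groups did not overlap, with a median of -0.031.

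Most of these directions depended on how the libraries were scaled. When the libraries were scaled to equal pan-leukocyte genes, the median of all genes moved from -0.0011 to -0.62, Cebpa, Cebpe, Cebpd and Runx1 turned negative, and Tfec (1.86, adjusted p = 3.23e-07) and Spi1 (0.19, adjusted p = 0.00758) were the factors that stayed higher at an adjusted p under 0.05. Spic was positive but did not pass (0.26, adjusted p = 0.104), and 4 factors (Cebpb, Cebpd, Maf and Runx1) were lower at that threshold. With the 4 Y-linked genes as the standard, the median of all genes was -0.83 and Tfec (1.66, adjusted p = 8.68e-07) alone stayed higher, while 5 factors (Cebpb, Cebpd, Cebpe, Maf and Runx1) were lower at the adjusted p. The Y-linked genes were present in all 6 libraries, with a geometric mean of 3.21 to 3.60 FPKM with PBS and of 6.71 to 7.01 FPKM with cisplatin. Their ratios of mean FPKM were uneven: 2.37 for Ddx3y, 2.27 for Kdm5d, 1.77 for Uty and 1.66 for Eif2s3y, beside 1.91 for Spi1. Kdm5d and Uty were low with PBS (1.05 and 1.51 FPKM on average).

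**Figure D1:**
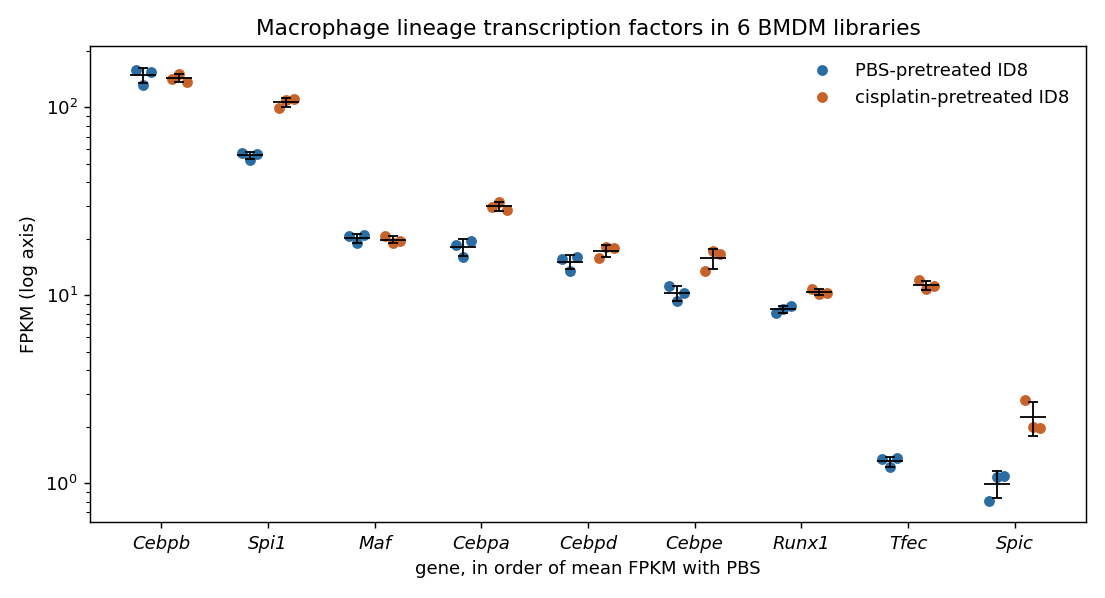
FPKM (log axis) of the 9 factors in each of the 6 libraries, in order of the mean with PBS; points are libraries, bars the mean and SD of 3. Tfec moves from 1.22 to 1.36 FPKM with PBS to 10.9 to 12.1 FPKM with cisplatin, Spi1 and Cebpa also separate, and the groups overlap for Cebpb, Cebpd and Maf.

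Tfec (ENSMUSG00000029553, chromosome 6, 16833373 to 16898441, minus strand, GRCm38) stood at 1.34, 1.22 and 1.36 FPKM in the 3 PBS libraries and at 12.1, 10.9 and 11.2 FPKM in the 3 cisplatin libraries. The groups did not overlap, and every cisplatin library lay far above every PBS library. The mean went from 1.31 ± 0.079 to 11.4 ± 0.62 FPKM (SD, n = 3 each), which is 8.69-fold, and the log2 fold change on log2(FPKM + 1) was 2.42 (SE 0.063, 95% confidence interval 2.27 to 2.57, adjusted p = 2.13e-07). Between 106 and 133 reads lay behind the PBS values and between 997 and 1147 behind the cisplatin values. Relative to the pan-leukocyte genes of the same library, the log2 ratio was higher by 2.38 with cisplatin (exact permutation test, two-sided, p = 0.1, the smallest that 3 libraries against 3 allow).

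The relatives of Tfec in the MiT/TFE family, basic helix-loop-helix leucine zipper factors of lysosome and pigment genes, did not move in step with it. Mitf (log2 fold change 0.20, adjusted p = 0.0141), Tfe3 (0.29, adjusted p = 0.00300) and Tfeb (0.21, adjusted p = 0.0718) all stayed below the fold change threshold. Tfec thus made up 5.98% to 6.60% of the FPKM summed over the 4 genes in the PBS libraries, and 30.5% to 34.9% in the cisplatin libraries. With PBS it was the least abundant of the family, whereas with cisplatin it reached 32.5% ± 2.23 (SD, n = 3), overlapping the 33.1% ± 0.69 of Tfe3. The share of Tfec differed by 26.2 percentage points (exact permutation test, two-sided, p = 0.1, the smallest possible), and the family's summed level went from 20.8 ± 0.72 to 35.0 ± 0.50 FPKM (SD, n = 3 each). A share within a library does not depend on how the library is scaled.

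**Figure D2:**
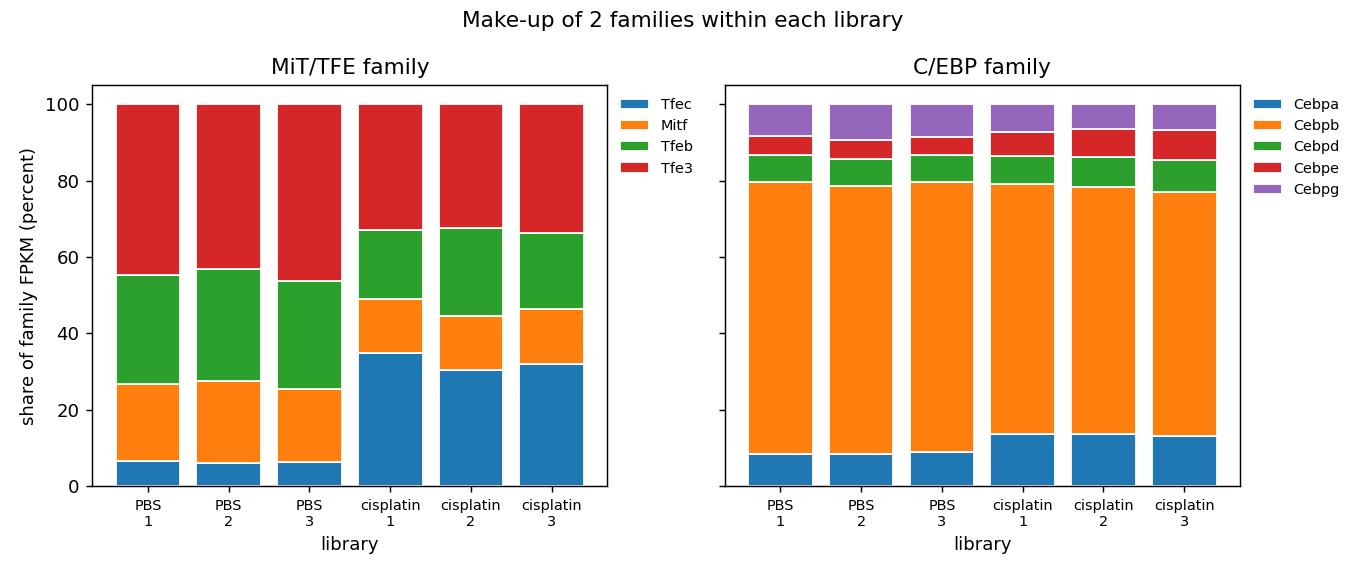
Percent of the FPKM summed over the MiT/TFE genes (left) and the C/EBP genes (right) that each gene took in each library. Tfec widens from 6.29% to 32.5% on average, and within the C/EBP family Cebpa and Cebpe widen while Cebpb narrows from 70.6% to 64.6%.

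The stretches before the transcription starts of Tfec and Spic, the factors with the largest ratios of mean FPKM, are shown beside that of Cebpb, whose level overlapped between the groups. Each runs 5′ to 3′ over the 250 bases before the RefSeq start (GRCm38.p6), at chr6:16898442-16898691 (minus strand), chr10:88683024-88683273 (minus strand) and chr2:167688665-167688914 (plus strand). Capitals mark matches, on either strand, to the ETS core GGAAGT, the RUNX motif TGTGGT or the STAT6 motif, which is TTC and GAA with 4 bases between them.
Tfec: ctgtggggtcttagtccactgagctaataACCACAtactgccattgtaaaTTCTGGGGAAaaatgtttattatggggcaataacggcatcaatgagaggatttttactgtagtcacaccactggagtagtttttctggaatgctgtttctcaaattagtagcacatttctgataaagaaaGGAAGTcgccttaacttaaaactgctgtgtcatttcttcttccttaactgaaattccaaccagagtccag
Spic: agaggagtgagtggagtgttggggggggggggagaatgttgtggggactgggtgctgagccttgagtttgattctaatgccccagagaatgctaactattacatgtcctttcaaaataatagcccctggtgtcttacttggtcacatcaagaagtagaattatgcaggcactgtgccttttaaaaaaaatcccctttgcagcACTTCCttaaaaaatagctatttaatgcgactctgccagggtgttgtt
Cebpb: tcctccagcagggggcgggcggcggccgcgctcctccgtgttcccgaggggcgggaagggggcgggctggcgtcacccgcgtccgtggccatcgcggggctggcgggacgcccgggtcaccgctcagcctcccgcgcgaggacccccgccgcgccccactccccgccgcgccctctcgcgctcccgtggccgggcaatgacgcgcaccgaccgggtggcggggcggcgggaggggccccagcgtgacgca
In the Tfec stretch the ETS core began 70 bases before the start, a RUNX match lay on the opposite strand with its first base at 221, and a STAT6 match, ttctggggaa, began at 200. The Spic stretch held the ETS core on the opposite strand, from 48 bases before the start. Of 32851 mouse promoter stretches of this length, 19.7% held the ETS core, 14.05% the RUNX motif and 5.85% the STAT6 motif. Also searched were the longer PU-box GAGGAAGT, which contains the ETS core (2.44% of all stretches), the C/EBP motif TTGCNNAA (9.56%), the E-boxes CATGTG (12.3%) and CACGTG (6.02%) and the large MAF half-site TGCTGAC (3.81%), none of which was in the 3 stretches shown. Stretches were held for 5 of the 9 factors (Cebpa, Cebpb, Runx1, Spic and Tfec). In the others of these, CACGTG stood 71 bases before the distal start of Runx1, and no motif of the list was in that of Cebpa. These matches are letters in a window and show no binding. In base composition the Cebpb stretch was 81.6% G and C, against 39.2% for Tfec, 44.8% for Spic and a median of 52.4% over all stretches.

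Spi1 (ENSMUSG00000002111, chromosome 2, 91082390 to 91115756, plus strand) was the second most abundant of the 9 factors in both groups. It stood at 57.3, 52.7 and 56.5 FPKM with PBS and at 99.2, 109 and 110.3 FPKM with cisplatin. The groups did not overlap. The mean went from 55.5 ± 2.48 to 106 ± 6.19 FPKM (SD of 3 libraries per group, log2 fold change 0.92, SE 0.055, adjusted p = 8.46e-06), just short of the fold change threshold, which it passed with limma voom on recovered reads (1.02, adjusted p = 3.22e-12), and it was -0.062 when libraries were scaled by Y-linked genes. Relative to the 10 pan-leukocyte genes its log2 ratio was higher by 0.20 with cisplatin, and relative to 8 macrophage markers it was lower, at -0.21 (exact permutation test, two-sided, p = 0.1 each, the smallest possible). The marker reference is a geometric mean without a pseudocount. It includes Mertk, at 0.43, 0.31 and 0.13 FPKM with PBS (9 to 33 reads) and 1.72 ± 0.18 FPKM with cisplatin (SD of 3 libraries). How far the sign of -0.21 rests on Mertk was not tested.

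Spic (ENSMUSG00000004359, chromosome 10, 88674772 to 88685015, minus strand) was the least abundant factor. It stood at 0.81, 1.09 and 1.09 FPKM with PBS and at 2.77, 1.998 and 1.97 FPKM with cisplatin, without overlap and with cisplatin replicate 1 above the other two. The mean went from 0.996 ± 0.16 to 2.25 ± 0.45 FPKM (SD, n = 3 each), a 2.26-fold ratio, and the log2 fold change was 0.70 (SE 0.13, adjusted p = 0.00226). The pseudocount holds back a gene this low: with a pseudocount of 0.1 the log2 fold change was 1.09 and with limma voom it was 1.26 (adjusted p = 2.02e-05), both past the threshold. Relative to pan-leukocyte genes the log2 ratio of Spic was higher by 0.43 without overlap (exact permutation test, two-sided, p = 0.1, the smallest possible), with 0.26 without cisplatin replicate 1 and 0.28 without PBS replicate 1, and relative to macrophage markers it overlapped (0.023, exact permutation p = 1). Only 55 to 65 reads lay behind each PBS value and 125 to 181 behind each cisplatin value. Of the 3 SPI genes, Spi1 took 43.0% to 45.3% of the summed FPKM with PBS and 49.7% to 52.8% with cisplatin, and Spic 0.64% to 0.89% and 0.94% to 1.39%. The rest was Spib, a relative used by B cells and plasmacytoid dendritic cells, at 68.5 ± 0.11 FPKM with PBS and 97.9 ± 1.53 FPKM with cisplatin (SD of 3 libraries per group, log2 fold change 0.51, adjusted p = 7.19e-06). Beside it, the lymphocyte markers summed to 112 to 120.03 FPKM with PBS and to 266 to 271 FPKM with cisplatin, and their part in the Spib values was not tested.

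Of the C/EBP genes, Cebpa and Cebpe were higher at the adjusted p in FPKM as deposited and Cebpb and Cebpd did not pass, whereas relative to pan-leukocyte genes Cebpb and Cebpd were apart and Cebpa and Cebpe overlapped. Cebpa (ENSMUSG00000034957, chromosome 7, 35119293 to 35121928, plus strand) stood at 18.6, 16.0 and 19.5 FPKM with PBS and at 29.6, 31.5 and 28.4 FPKM with cisplatin. All cisplatin libraries lay above all PBS libraries, with means of 18.0 ± 1.81 and 29.8 ± 1.57 FPKM (SD of 3 libraries per group, log2 fold change 0.70, SE 0.078, adjusted p = 0.000193). Relative to pan-leukocyte genes the Cebpa ratio overlapped between the groups and differed by -0.011 on the log2 scale (exact permutation test, two-sided, p = 1). Cebpe (ENSMUSG00000052435, chromosome 14, 54710360 to 54712174, minus strand), which granulocyte precursors need for their secondary granules, stood at 11.2, 9.31 and 10.3 FPKM with PBS and at 13.5, 17.1 and 16.6 FPKM with cisplatin. These groups were apart as well, cisplatin replicate 1 being the lowest of its group (log2 fold change 0.57, SE 0.10, adjusted p = 0.00205), although the ratio to pan-leukocyte genes again overlapped (-0.13, exact permutation test, two-sided, p = 0.4). With 1 library left out, this difference in ratio ranged from -0.19 to -0.030.

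Cebpb (ENSMUSG00000056501, chromosome 2, 167688915 to 167690418, plus strand), a single-exon gene, was the most abundant factor in both groups. It stood at 159, 132 and 155 FPKM with PBS and at 142, 150.2 and 136 FPKM with cisplatin. The groups overlapped fully, and PBS replicate 2 was the lowest of the 6 libraries. On the log2 scale the difference was -0.054 (SE 0.075, 95% confidence interval -0.23 to 0.13, adjusted p = 0.552). Cebpd (ENSMUSG00000071637, chromosome 16, 15887286 to 15891031, plus strand), also of a single exon, stood at 15.7, 13.5 and 15.9 FPKM with PBS and at 15.8, 18.2 and 17.9 FPKM with cisplatin (log2 fold change 0.19, SE 0.079, 95% confidence interval 0.00095 to 0.38, adjusted p = 0.0696). Its groups overlapped through cisplatin replicate 1 alone. Relative to pan-leukocyte genes, however, Cebpb was lower with cisplatin by 0.79 and Cebpd by 0.54 on the log2 scale, each without overlap (exact permutation test, two-sided, p = 0.1, the smallest possible). Cebpb lies across Tmem189 (31.8 to 37.98 FPKM) and Cebpd across Spidr (means of 13.0 FPKM with PBS and 5.96 FPKM with cisplatin), both on the other strand. Since it is not stated whether counting used strand, reads of these neighbours cannot be told apart from theirs.

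In shares of FPKM, the balance within the C/EBP family moved from Cebpb towards Cebpa and Cebpe. Cebpb took 70.1% to 71.3% of the FPKM summed over Cebpa, Cebpb, Cebpd, Cebpe and Cebpg with PBS, and 63.8% to 65.4% with cisplatin. The share of Cebpa went from 8.57% ± 0.27 to 13.5% ± 0.20 and that of Cebpe from 4.89% ± 0.17 to 7.13% ± 0.78 (SD, n = 3 each). Cebpd differed by 0.68 percentage points (0.40 without cisplatin replicate 3) and Cebpg by -1.82. In shares of recovered reads, which weight genes by length, the differences were 1.34 for Cebpe, 1.27 for Cebpd and -4.77 for Cebpg, in the same directions. By reads Cebpa still gained the most, but Cebpg lost more than Cebpb, and Cebpd gained nearly as much as Cebpe. For each of the 5 genes the groups did not overlap in share of FPKM (exact permutation test, two-sided, p = 0.1, the smallest possible). The family's summed level overlapped, at 189 to 222 FPKM with PBS and 214 to 232 FPKM with cisplatin.

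**Figure D3:**
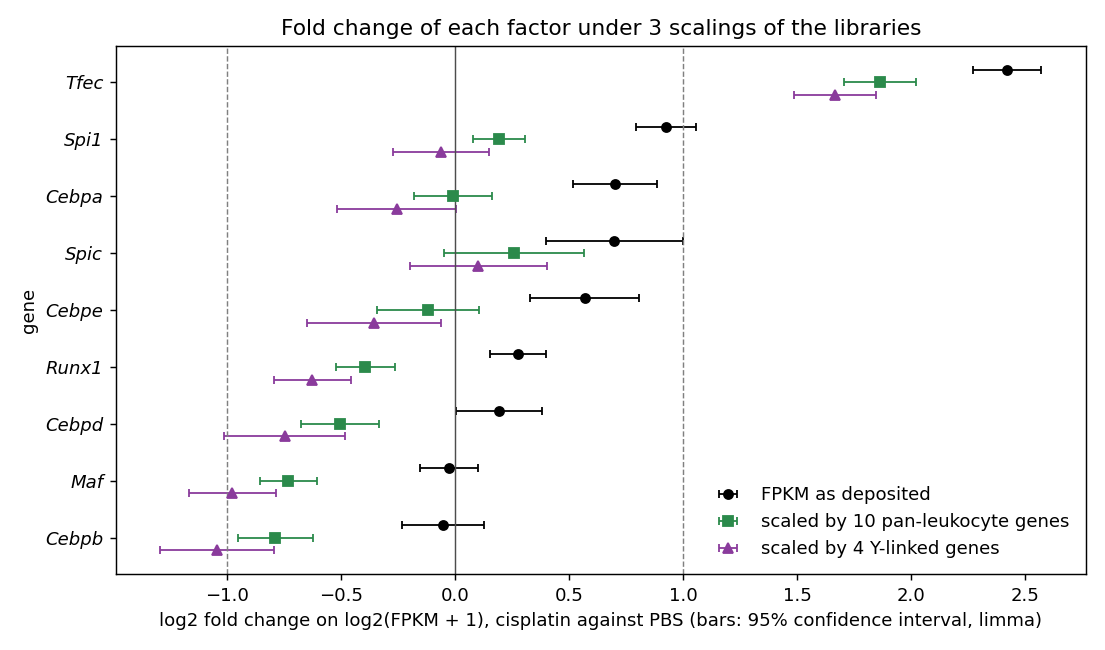
Log2 fold change (cisplatin against PBS, on log2(FPKM + 1), with 95% confidence intervals) of each factor with FPKM as deposited, scaled by 10 pan-leukocyte genes and scaled by 4 Y-linked genes; dashed lines mark the fold change threshold. Tfec stays above 1 under all 3 scalings (2.42, 1.86 and 1.66), while Cebpb moves from -0.054 to -0.79 and -1.05.

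Maf (ENSMUSG00000055435, chromosome 8, 115682942 to 115707794, minus strand) stood at 20.8, 18.9 and 20.9 FPKM with PBS and at 20.7, 19.0 and 19.6 FPKM with cisplatin. The groups overlapped, at a difference of -0.028 on the log2 scale (SE 0.054, 95% confidence interval -0.16 to 0.10, adjusted p = 0.667). Relative to pan-leukocyte genes it was lower by 0.77 on the log2 scale (exact permutation test, two-sided, p = 0.1, the smallest possible).

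Runx1 (ENSMUSG00000022952, chromosome 16, 92601466 to 92826149, minus strand) stood at 8.05, 8.46 and 8.77 FPKM with PBS and at 10.8, 10.1 and 10.3 FPKM with cisplatin. The groups were apart but close, the log2 fold change being 0.27 (SE 0.051, adjusted p = 0.00253). Relative to pan-leukocyte genes its direction turned, to -0.44 (exact permutation test, two-sided, p = 0.1, the smallest possible). Gm26626, an antisense gene inside Runx1, had means of 2.41 FPKM with PBS and 4.66 FPKM with cisplatin, and without strand its reads cannot be told apart from those of Runx1. Runx2 (log2 fold change -0.077, adjusted p = 0.398) and Runx3 (0.097, adjusted p = 0.290) did not pass the test, whereas Cbfb, the partner subunit of all RUNX proteins, was higher (30.7 ± 0.74 to 47.4 ± 2.51 FPKM, SD of 3 libraries per group, log2 fold change 0.61, adjusted p = 3.00e-05).

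In order of level, Cebpb and Spi1 led in both groups. Maf and Cebpa overlapped with PBS (18.9 to 20.9 and 16.0 to 19.5 FPKM), whereas with cisplatin Cebpa lay above Maf without overlap. Cebpd and Cebpe were apart with PBS but overlapped with cisplatin (15.8 to 18.2 and 13.5 to 17.1 FPKM). Tfec stood below Runx1 by several fold with PBS and above it with cisplatin, there without overlap, although the lowest Tfec value and the highest Runx1 value nearly met.

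Other transcription factors were set beside the 9. Of 15 relatives from the same families, 13 were tested and none was called in either direction (limma, with 8 higher and 2 lower at an unadjusted p under 0.05, while limma voom called 2 higher), with 8 higher and 2 lower at the adjusted p and a median log2 fold change of 0.21 (-0.43 with pan-leukocyte and -0.65 with Y-linked scaling). The small MAF genes went separate ways: Mafg was higher (log2 fold change 0.92, adjusted p = 7.58e-07) and Maff lower (-0.93, adjusted p = 1.00e-04). Of 24 other factors of myeloid fate, 6 were called higher and 4 lower, with a median of 0.39 (-0.25 with pan-leukocyte and -0.50 with Y-linked scaling). The largest changes were the falls of the immediate early genes Nr4a1 (19.5 ± 1.31 to 5.54 ± 0.18 FPKM, SD of 3 libraries per group, log2 fold change -1.65, adjusted p = 7.56e-07) and Egr1 (log2 fold change -1.52, adjusted p = 1.42e-06), and the rise of Myb, a factor of immature progenitors (5.82 ± 0.62 to 20.1 ± 0.51 FPKM, SD of 3 libraries per group, log2 fold change 1.64, adjusted p = 1.96e-06). Of 12 tissue macrophage factors, 11 were tested, 0 were called higher and 2 lower, with a median of 0.13 (limma, with 3 higher at an unadjusted p under 0.05, while limma voom called Bach2 higher). The median was 0.043 without cisplatin replicate 3, 0.048 without PBS replicate 3 and 0.077 without PBS replicate 2. It was -0.18 with at least 5 FPKM required, -0.54 with pan-leukocyte and -0.77 with Y-linked scaling. With quantile normalisation and limma voom it was higher, at 0.24 and 0.23. The 2 called lower were Gata6, a factor of peritoneal macrophages that mesothelial cells also express (10.9 ± 0.45 to 1.49 ± 0.25 FPKM, SD of 3 libraries per group, log2 fold change -2.25, adjusted p = 9.10e-07), and Bhlhe40 (log2 fold change -1.19, adjusted p = 2.03e-07). Beside Gata6, 10 of the 11 tested ID8 and mesothelial genes were lower, with a median of -2.07 over the 11, and their part in its fall was not tested.

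Genes known as targets of these factors were described in the same way. Of 12 PU.1 targets, 5 were called higher and none lower (limma, 0 lower at an unadjusted p under 0.05, and 0 called lower by limma voom), with 11 higher at the adjusted p and a median of 0.90, beside 0.92 for Spi1 itself. Itgam, which encodes CD11b (log2 fold change 1.42, adjusted p = 2.54e-07), Btk, a kinase of B and myeloid cells (1.41, adjusted p = 2.55e-06), and the scavenger receptor gene Msr1 (1.36, adjusted p = 3.85e-07) rose the most among them. The list shares 5 genes with the macrophage markers, and its median was 0.17 when libraries were scaled by pan-leukocyte genes and -0.087 when scaled by Y-linked genes. Of 10 granule genes that C/EBPα and C/EBPε drive in granulocyte precursors, 9 were called higher and 1 lower, with a median of 1.79. The primary granule genes Mpo (18.7 ± 0.59 to 121 ± 4.51 FPKM, SD of 3 libraries per group, log2 fold change 2.63, adjusted p = 6.00e-08), Prtn3 (2.499, adjusted p = 6.68e-08) and Ctsg (2.31, adjusted p = 2.19e-07) rose the most, against 0.70 for Cebpa and 0.57 for Cebpe. The exception was Lcn2, the siderophore-binding lipocalin (log2 fold change -1.09, adjusted p = 4.06e-07), named after its value was seen. Of the 10 granule genes, 2 are also among the neutrophil markers, whose summed level was higher with cisplatin too, and the part of such cells was not tested. The median of the granule genes stayed positive under pan-leukocyte (1.05) and Y-linked scaling (0.80).

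**Figure D4:**
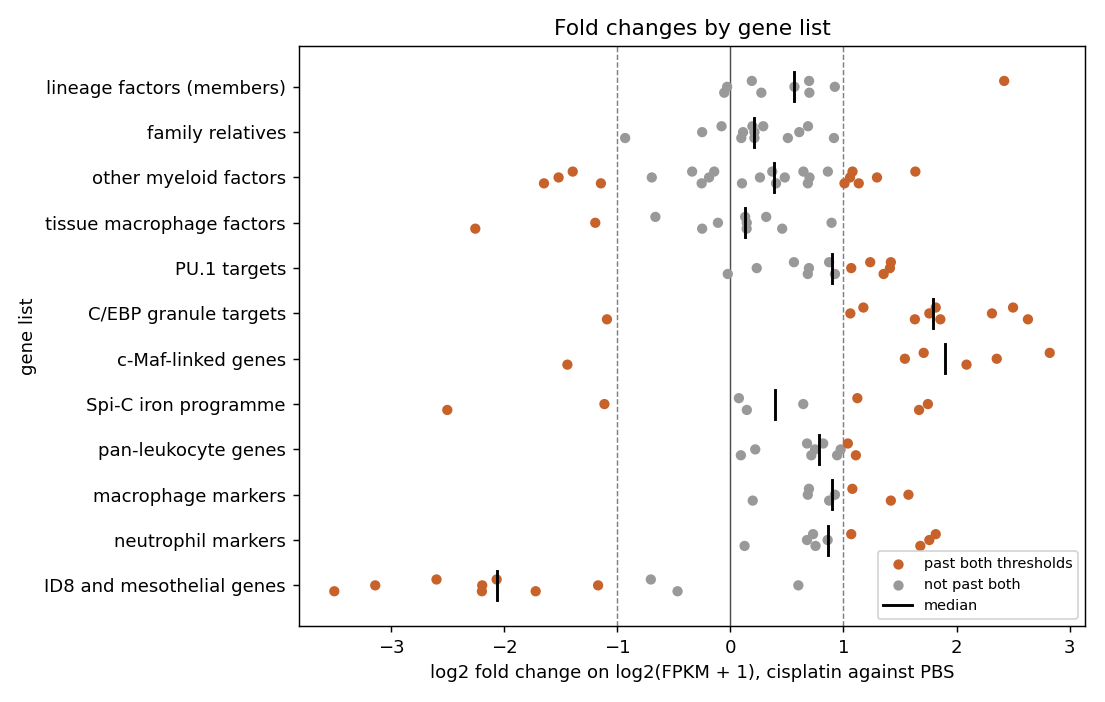
Log2 fold change (cisplatin against PBS, on log2(FPKM + 1)) of every tested gene in 12 gene lists; orange points passed both thresholds and black bars are medians. The 9 lineage factors (median 0.57) lie below the PU.1 targets (0.90), C/EBP granule targets (1.79) and c-Maf-linked genes (1.90), and the ID8 and mesothelial genes lie at -2.07.

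Of 9 genes linked to c-Maf in macrophages, 6 were tested, 5 were called higher and 1 lower, with a median of 1.90, while Maf itself did not pass the test. The median was 1.26 with pan-leukocyte scaling and 1.03 with Y-linked scaling. The mannose receptor gene Mrc1 went from 0.74 ± 0.18 to 11.3 ± 0.44 FPKM (SD of 3 libraries per group, log2 fold change 2.82, adjusted p = 4.61e-07), the complement gene C1qb from 5.74 ± 0.94 to 33.3 ± 1.26 FPKM (SD of 3 libraries per group, log2 fold change 2.35, adjusted p = 1.45e-06) and the scavenger receptor gene Stab1 rose by 2.09 (adjusted p = 7.55e-07). Il10, named after its value was seen, fell by 1.44 on the log2 scale (adjusted p = 4.94e-05). Cd163, Folr2 and Timd4 stayed below 1 FPKM. Of 8 genes linked to Spi-C-dependent macrophages, 3 were called higher and 2 lower, with a median of 0.40 that turned to -0.33 with pan-leukocyte and -0.59 with Y-linked scaling. With at least 5 FPKM required, the median of the genes still tested was 0.64. Of the iron and heme genes among them, Slc40a1, the iron exporter gene (log2 fold change 1.75, adjusted p = 8.54e-07), and Hmox1, the heme oxygenase gene (1.12, adjusted p = 2.68e-07), rose, Ftl1 was higher by less than the threshold (0.64, adjusted p = 4.24e-05), and Blvrb (0.15, adjusted p = 0.0577) and Fth1 (0.076, adjusted p = 0.148) did not pass. The other members are no iron or heme genes: Treml4 rose (1.67, adjusted p = 7.50e-07), Cd5l fell (log2 fold change -1.11, adjusted p = 0.000862), and the adhesion gene Vcam1, which other cell types also use, fell (18.4 ± 1.12 to 2.42 ± 0.21 FPKM, SD of 3 libraries per group, log2 fold change -2.501, adjusted p = 2.57e-07).

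Among 7720 tested protein-coding genes with a mean of at least 5 FPKM, those whose log2(FPKM + 1) over the 6 libraries was most like that of Tfec were Epc1, Plk2 and Hirip3, with a Pearson's r of 0.99992, 0.99992 and 0.99985. The split between the groups sets most of this likeness, since 729 genes had an r above 0.99.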

How the data were processed

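Poly(A) RNA of 6 co-culture libraries was sequenced by the authors, 3 with cisplatin-pretreated and 3 with PBS-pretreated ID8 cells. The authors deposited 1 table of FPKM values per gene. The submitters' processing notes name fastp, HISAT2 2.0.5, featureCounts 1.5.0-p3 and mm10, whereas the study's methods name LifeScope for alignment and counting and DESeq2 for testing. Which of them made the values, and whether counting used strand, are not given in the sources used here. Gene coordinates in the table were the same as in GENCODE M21 (GRCm38) for 98.3% of IDs, including all 9 factors.

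FPKM multiplied by gene length was divided by a step fitted for each library. This gave whole reads (within 0.02 reads, checked for values under 200 reads), so depth was recovered: 15776238 to 17924686 reads per library. Same-group libraries correlated at 0.984 to 0.989 and libraries of different groups at 0.871 to 0.877. FPKM were not treated as counts. log2(FPKM + 1) was tested with limma 3.58.1 (R 4.3.3; lmFit, eBayes with trend, group only, 6 libraries, two-sided), for 13441 genes with at least 1 FPKM in at least 3 libraries, with Benjamini-Hochberg adjustment over all of them. Fold changes on this scale understate the change of low genes such as Spic and Tfec. Family shares and ratios to the geometric mean of 10 pan-leukocyte genes were compared by an exact permutation test. Groups came from the sample labels.

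The 9 factors and all gene lists were chosen with earlier results of these data known, and they are described by counts and medians. Named in the text were all 9 factors, the 3 called genes with the largest log2 fold change in size of each list, and the 3 genes most correlated with each called factor. Genes outside this rule (the family relatives, Cbfb, Lcn2, Il10, Bach2, the iron and heme genes other than Slc40a1, Cd5l, and single marker genes), and the families other than C/EBP, were named after their values were seen. Promoter stretches came from RefSeq (GRCm38.p6) and were matched by symbol. Alternatives covered the pseudocount, the low-value filter, 5 scalings, limma voom, eBayes without trend, the replicate block, each library left out, and the adjusted p alone.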

Additional observations from a re-analysis of the deposited data

How the results depend on the processing

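Tfec stayed called under all alternatives tried, at log2 fold changes from 1.66 (Y-linked scaling) to 3.20 (limma voom). The number of factors called higher went from 1 to 2 with a pseudocount of 0.1 (Spic added), to 3 with limma voom (Spi1 and Spic added) and to 6 at the adjusted p alone. The number called lower went from 0 to 1 with Y-linked scaling, where Cebpb stood at -1.05 (adjusted p = 4.88e-05). With at least 5 FPKM required, Spic was not tested and 8 factors were.

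Of all genes, 628 were called higher and 1514 lower. The split was 973 and 1981 with a pseudocount of 0.1, 135 and 3578 with pan-leukocyte scaling, 85 and 5181 with Y-linked scaling, 1227 and 1862 with limma voom, 835 and 1290 with quantile normalisation (median of all genes 0.10), and 4424 and 4721 at the adjusted p alone.

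Signs turned with pan-leukocyte scaling for Cebpa (-0.011), Cebpd (-0.51), Cebpe (-0.12) and Runx1 (-0.39), and with Y-linked scaling for Spi1 (-0.062), Cebpa (-0.26), Cebpd (-0.75), Cebpe (-0.36) and Runx1 (-0.63). Cebpb (0.031) and Maf (0.057) turned with limma voom and Maf (0.018) with quantile normalisation. Medians turned, with pan-leukocyte and Y-linked scaling, for the 9 factors (-0.12 and -0.36), their relatives (-0.43 and -0.65), other myeloid factors (-0.25 and -0.50), tissue macrophage factors (-0.54 and -0.77, and -0.18 with at least 5 FPKM) and Spi-C-linked genes (-0.33 and -0.59), and for PU.1 targets with Y-linked scaling (-0.087). These scalings multiply each library by 1 factor, and why the standards differ was not tested. Quantile normalisation and limma voom raised the medians of the relatives (0.32 and 0.33), other myeloid factors (0.50 and 0.55) and tissue macrophage factors (0.24 and 0.23). With at least 5 FPKM required, the median was 0.42 for the factors still tested and 0.64 for Spi-C-linked genes.

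Relative to macrophage markers in place of pan-leukocyte genes, Spi1 turned to -0.21, and 7 of 9 factors were lower without overlap, among them Cebpa (-0.42), Cebpe (-0.53), Cebpb (-1.20) and Maf (-1.18), while Tfec was higher (1.97) and Spic overlapped (0.023). The markers include Mertk, which was low with PBS (0.29 ± 0.15 FPKM, SD of 3 libraries), and its part in these ratios was not tested. The ratio of Cebpa to pan-leukocyte genes ranged from -0.085 to 0.042 with 1 library left out, turning positive without cisplatin replicate 3, PBS replicate 1 or PBS replicate 3. With 1 library left out, 622 to 671 genes were called higher and 1513 to 1531 lower, and 1 factor higher and 0 lower.

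Same-numbered libraries did not deviate together (r = -0.10, -0.086 and -0.024). With a replicate block, 1 factor was called higher and 0 lower, and 625 and 1515 of all genes. Depth limits Spic most, since 55 to 181 reads lay behind its values.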
